A study of Mus musculus with 15 samples.

Results

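MYC tumor nodules of mouse liver were compared with control liver on 7 of the series' 15 arrays, which were chosen by their labels: 4 arrays of tumor nodules and 3 of control liver. The nodules came from FVB/N mice carrying both LAP-tTA and TRE-MYC, in which a doxycycline-repressed activator made in liver cells switches on a MYC transgene. The controls were FVB/N mice with LAP-tTA alone. Mice of both kinds ate doxycycline chow at 200 mg/kg until they were over 8 weeks old, and nodules were taken 8 to 9 weeks after it was withdrawn. For the controls the labels state no such interval, and nothing in them ties an array to an animal, so p-values measure the spread between these samples. Other arrays were 4 of pre-tumor liver (4 to 5 weeks off doxycycline) and 4 of regression (tumor tissue after 72 hours back on doxycycline). They entered the shared estimate of spread, the background filter and the choice of each gene's probe. Otherwise they are used only where named.

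MYC is a transcription factor that binds DNA together with its partner MAX, most strongly at the sequence CACGTG, and raises the output of genes for ribosomes, RNA processing, metabolism and cell division. Hepatocytes normally divide rarely. They secrete most plasma proteins, detoxify drugs and steroids through cytochrome P450 and conjugating enzymes, and make urea, glucose and bile acids. Fetal hepatocytes and many liver tumors instead make alpha-fetoprotein and insulin-like growth factor 2.

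Each array carried 1 Cy3-labelled sample. Levels are log2 signal minus the array's 75th percentile, so a level above 0 is brighter than that percentile, and levels of different probes are not comparable. Differences are log2, nodules minus control, ± the SE of the limma model. The share of spots well above background was 46.4% to 79.0% over the nodules (lowest in tumor 3, highest in tumor 4) and 54.4% to 73.0% over control liver. Pearson's r across genes was 0.894 to 0.970 between nodules, 0.836 to 0.934 between control arrays and 0.721 to 0.848 between a nodule and a control. The E1A spike-in signal was 33.8 on tumor 4 against 2.58 to 5.46 on the other nodules, and 34.8 on control 1 against 6.14 and 8.03 on the other controls. The arrays lay on 4 slides, and 3 slides held a nodule and a control together. All 9 hepatocyte markers measured were well above background on at least 1 nodule, and 8 of them fell (5 without control 1, 3 with median centring or without the 4 arrays of highest E1A signal). Their mean level was 4.65 to 6.30 in nodules and 7.46 to 7.78 in control liver. In whole tissue, fewer cells of a type and less RNA per cell cannot be told apart, which holds for every result below.

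Of 19207 genes tested, 1811 rose (9.43%) and 1347 fell (7.01%) in tumor nodules at an adjusted p under 0.05, the threshold for "rose" and "fell" throughout. With each array centred on its median instead, 1889 rose and 911 fell, so that 67.5% of calls were rises, against 57.3% with the 75th percentile. The median difference of all genes was 0.12 with that centring, against −0.18 here, and list medians below stand beside −0.18. List counts below stand beside 9.43% risen and 7.01% fallen. With the slide as a block, 1279 rose and 968 fell. Within each of the 3 slides that held both groups, the difference had the same sign for 1760 of the 1811 risen genes and 1284 of the 1347 fallen ones, which were called on these same arrays. Over all 19207 genes it was higher within each slide for 3390 and lower for 4052. The falls reached further: 228 genes were at least 16-fold lower and 81 at least 16-fold higher. Arrays of the groups did not overlap for 2636 genes above control (13.7%) and 2284 below it (11.9%).

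Promoters of 6 genes are shown as examples of motifs whose share differed between risen and fallen genes, as counted at the end. They are the genes with the largest statistics that hold each motif, so they were chosen after their values were seen. Each runs from 250 bases before to 50 bases after the transcription start in RefSeq, GRCm38.p6, and the capitals mark the motif. Mcm7 and Mcm6, subunits of the DNA helicase that opens replication origins, hold an E2F motif (TTTGGCGC or TTTCCCGC). Knstrn, a spindle protein, and Bex3, an X-linked adaptor protein, hold the E-box CACGTG. Cyp2a4, a steroid hydroxylase, and Ces3b, a carboxylesterase, hold TATAAA.
Mcm7, chr5:138171834-138172133, minus strand: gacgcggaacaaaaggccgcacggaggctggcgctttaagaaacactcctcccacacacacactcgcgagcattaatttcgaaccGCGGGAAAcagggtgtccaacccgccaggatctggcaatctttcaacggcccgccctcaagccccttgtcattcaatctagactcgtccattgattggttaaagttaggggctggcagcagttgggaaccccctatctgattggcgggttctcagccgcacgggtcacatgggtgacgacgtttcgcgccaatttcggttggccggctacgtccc
Mcm6, chr1:128359656-128359955, minus strand: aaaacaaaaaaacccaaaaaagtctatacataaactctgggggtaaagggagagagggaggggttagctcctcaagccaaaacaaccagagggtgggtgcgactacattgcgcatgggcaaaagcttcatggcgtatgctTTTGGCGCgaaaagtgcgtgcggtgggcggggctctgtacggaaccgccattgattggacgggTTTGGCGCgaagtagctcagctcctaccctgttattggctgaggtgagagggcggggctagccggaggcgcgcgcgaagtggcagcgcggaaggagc
Knstrn, chr2:118813753-118814052, plus strand: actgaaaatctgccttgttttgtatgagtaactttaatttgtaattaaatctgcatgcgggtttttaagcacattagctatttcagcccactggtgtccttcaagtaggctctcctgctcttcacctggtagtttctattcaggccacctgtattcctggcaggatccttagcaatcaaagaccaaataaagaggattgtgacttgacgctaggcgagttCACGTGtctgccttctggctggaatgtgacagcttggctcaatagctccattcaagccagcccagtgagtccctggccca
Bex3, chrX:136270003-136270302, plus strand: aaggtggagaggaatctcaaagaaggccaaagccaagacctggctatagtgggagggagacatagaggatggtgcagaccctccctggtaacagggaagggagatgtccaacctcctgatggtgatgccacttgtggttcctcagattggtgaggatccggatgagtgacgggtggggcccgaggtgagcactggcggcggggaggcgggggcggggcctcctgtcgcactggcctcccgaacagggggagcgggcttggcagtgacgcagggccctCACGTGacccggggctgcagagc
Cyp2a4, chr7:26306942-26307241, plus strand: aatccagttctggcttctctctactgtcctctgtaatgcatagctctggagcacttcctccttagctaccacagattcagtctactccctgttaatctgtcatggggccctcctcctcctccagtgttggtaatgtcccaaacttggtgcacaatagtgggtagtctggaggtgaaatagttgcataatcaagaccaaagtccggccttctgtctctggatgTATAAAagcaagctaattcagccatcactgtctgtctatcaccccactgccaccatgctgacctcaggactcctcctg
Ces3b, chr8:105083505-105083804, plus strand: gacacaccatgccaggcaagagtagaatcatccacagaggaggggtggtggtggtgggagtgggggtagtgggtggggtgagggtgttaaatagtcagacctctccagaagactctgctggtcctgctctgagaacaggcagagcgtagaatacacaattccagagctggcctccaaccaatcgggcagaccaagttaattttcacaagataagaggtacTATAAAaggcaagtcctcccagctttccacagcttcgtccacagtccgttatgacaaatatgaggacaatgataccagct

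The transgene was checked first. The array holds 3 Myc probes on the plus strand of chromosome 15 (mm9), and they had no common direction. Probe A_52_P108346 (61819528 to 61819587) read 4.08, 3.66, 4.81 and 4.35 in nodules, against −0.23, −0.94 and −1.63 in control liver. Its means were 4.22 ± 0.48 (SD, n = 4) and −0.93 ± 0.70 (SD, n = 3), and the groups did not overlap. Pre-tumor arrays lay between, at 0.09 to 2.49, and regression arrays were at −0.82 to −0.10. Probe A_52_P278549 (61819036 to 61819095), the brightest on average and so the one used for the gene, ran the other way, with 0.58, 0.44, 1.22 and 1.01 in nodules, against 1.62, 2.18 and 1.95 in control liver. Its difference was −1.10 ± 0.47 (adjusted p = 0.129), which did not pass. The third probe, A_51_P102096 (61819627 to 61819687), was dim, well above background on 1 of 4 nodules and 2 of 3 controls. The labels do not say from which species the transgene came, and whether the probes can see its transcript was not tested. None of the 13 measured genes of the MYC and MAX network passed (2 rose with normexp and quantile normalization), among them Max at 0.96 ± 0.42 (adjusted p = 0.14), Mycn at −0.30 ± 0.53 (adjusted p = 0.763) and the antagonist Mxd4 at −0.59 ± 0.34 (adjusted p = 0.286).

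**Figure D1:**
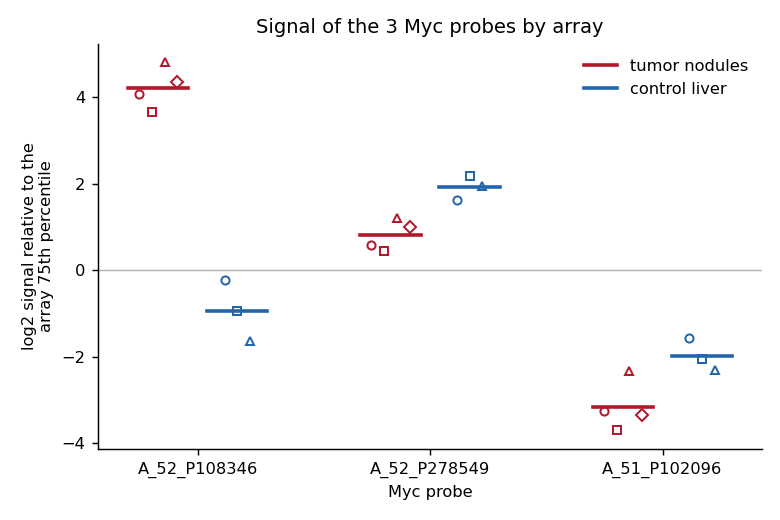
Levels of the 3 Myc probes (y axis, log2 signal minus the array's 75th percentile) in tumor nodules, left, and control liver, right, with bars for group means. Marker shapes give only the replicate number, and levels of different probes are not comparable. Only probe A_52_P108346 lay higher in all 4 nodules than in all 3 controls.

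The rises with the largest statistics included fetal transcripts and genes of cell division and synthesis. H19, an imprinted fetal RNA, read 9.17, 10.15 and 8.69 on the 3 nodules with a value, against −1.76, −0.87 and −1.66 in control liver, a difference of 10.77 ± 0.65 (adjusted p = 9.96e-08). The nodules of Psat1, which makes serine, read 6.05, 5.74, 5.61 and 5.31, against −2.15, −0.23 and −0.82 in control liver. Its difference of 6.74 ± 0.51 (adjusted p = 2.97e-07) was a 107-fold rise, with no overlap of the groups. Birc5, a survival and spindle protein of dividing cells, rose by 5.94 ± 0.36 (adjusted p = 6.40e-08), and Dut, which keeps uracil out of DNA, by 4.65 ± 0.34 (adjusted p = 2.51e-07). Isyna1 (inositol synthesis) rose by 4.14 ± 0.31, Uhrf1 (maintenance of DNA methylation) by 4.05 ± 0.31, Mcm7 by 3.72 ± 0.30, the spindle checkpoint gene Mad2l1 by 4.60 ± 0.39, the microtubule regulator Stmn1 by 4.84 ± 0.42 and the ATP/ADP carrier Slc25a4 by 5.05 ± 0.39. Where no array of 1 group saw a gene well above background, its fold is a bound, set against the dimmest signal that those arrays did see well above background. Afp, the fetal counterpart of albumin, read 7.23, 7.82, 7.02 and 6.94 in nodules and −4.85, −4.85 and −3.93 in control liver and was at least 1107-fold higher (adjusted p = 3.84e-08). Bounds were at least 36.4-fold for Tmed6, 24.4-fold for Knstrn, 21.7-fold for Mthfd1l (mitochondrial one-carbon metabolism), 15.7-fold for Arhgap11a and 15.6-fold for Shcbp1. The adjusted p was 4.45e-04 for Arhgap11a and lower for the others. In all, 58 genes had such a bound higher and 60 lower.

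**Figure D2:**
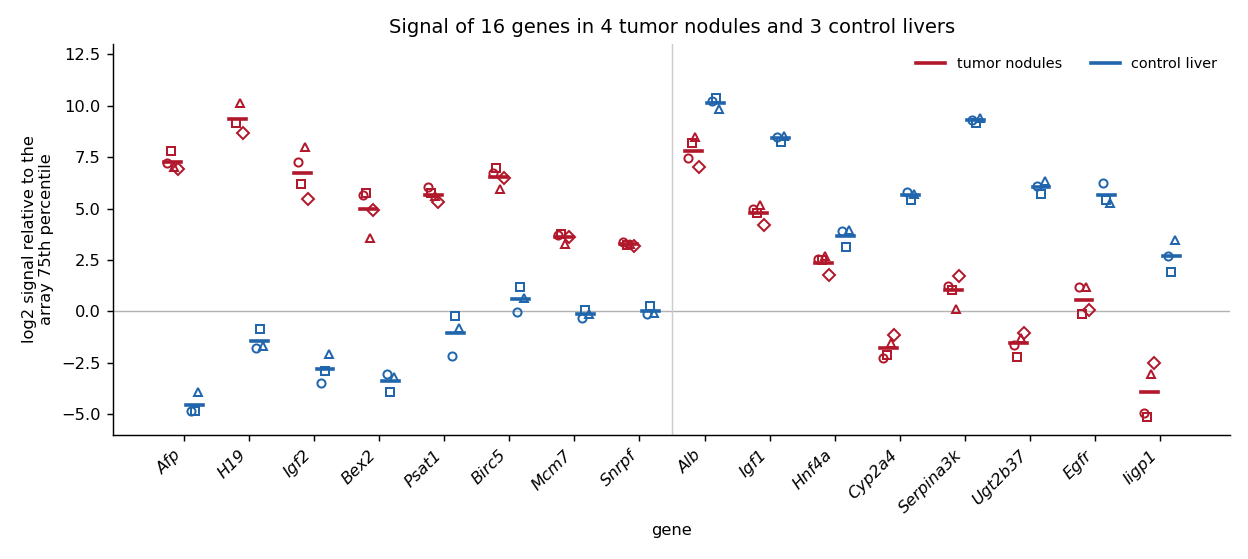
Levels of 8 risen genes (Afp to Snrpf) and 8 fallen genes (Alb to Iigp1) in tumor nodules, left of control liver, on a y axis of log2 signal minus the array's 75th percentile. Marker shapes give replicate numbers and bars group means, and levels of different genes are not comparable. In each of the 16 genes all nodules lay on 1 side of all controls, except that H19 has no value on 1 nodule.

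Most genes of splicing and nuclear transport rose. Of 56 splicing factors measured, 42 rose and 0 fell, with a list median of 1.53, against 9.43% of all genes risen. Snrpf, of a protein ring in spliceosomal particles, read 3.39, 3.23, 3.28 and 3.19 in nodules, against −0.12, 0.27 and −0.07 in control liver. The difference of Snrpf was 3.24 ± 0.30 (adjusted p = 2.18e-06). Its partner in the ring, Snrpg, rose by 2.67 ± 0.31 and Lsm3, of the U6 particle, by 3.10 ± 0.34. Magohb, of the exon junction complex, rose by 4.09 ± 0.45 and was well above background on 1 of 3 control arrays. Of 43 nuclear pore and transport genes 30 rose, with a median of 1.84, or 1.55 with its bounded members at their bounds. Ranbp1 and Rcc1, which drive the Ran cycle of transport, rose (2.72 ± 0.32 and 2.81 ± 0.33), and the pore proteins Nup43 and Nup85 by 3.29 ± 0.44 and 2.60 ± 0.35.

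Part of the genes of protein making and folding also rose. Of 10 chaperonins, which fold newly made proteins, 8 rose, and Cct5 read 5.69, 5.53, 5.36 and 5.38 in nodules, against 3.25, 3.09 and 3.60 in control liver. Its difference was 2.17 ± 0.33 (adjusted p = 2.27e-04), with no overlap. Of 33 translation initiation factors 19 rose, among them Eif1ax at 2.05 ± 0.40 and Eif3l at 1.92 ± 0.32. The count was 6 without control 2, 10 without control 3, 9 without tumor 1 and 7 with the slide as a block. Cytosolic tRNA synthetases, which load amino acids onto tRNAs, had 9 of 20 risen (5 without the 4 arrays of highest E1A signal), with Kars at 2.26 ± 0.42 and Lars at 2.06 ± 0.38. Aars alone among them fell, at −1.43 ± 0.43 (adjusted p = 0.0297), and it lost its call on leaving out control 1, tumor 1 or tumor 3, and with the slide as a block. The mitochondrial ribosome had 20 of 71 members risen, among them Mrpl3 at 1.89 ± 0.35 and Mrpl18 at 1.81 ± 0.35, and the count was 12 or 13 without control 2, control 3, tumor 1 or tumor 2. RNA polymerases I and III had 7 of 25 risen, among them Polr1c at 2.13 ± 0.43, with 3 to 4 without control 3, tumor 1 or tumor 2 and 3 with the slide as a block. Of the nucleolar genes, Ncl read 5.29, 5.34, 4.46 and 5.59 in nodules, against 2.51, 2.03 and 0.80 in control liver, and rose by 3.39 ± 0.48, while Npm1 rose by 2.99 ± 0.38. Of 31 genes of the proteasome, which degrades proteins, 1 rose (Psmd3 at 1.29 ± 0.36) and 0 fell.

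**Figure D3:**
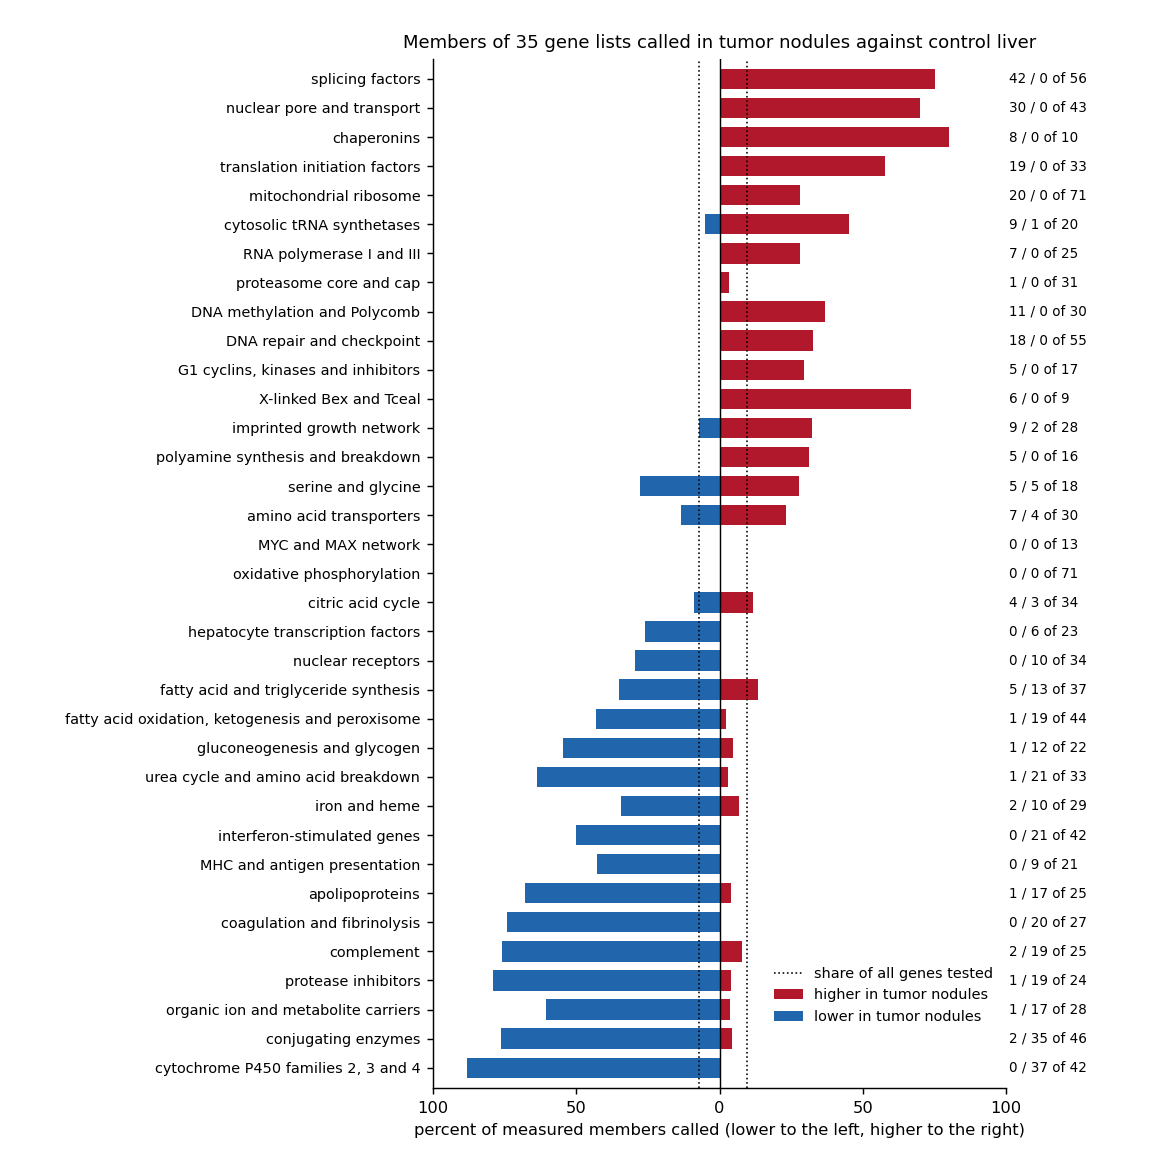
Share of measured members called higher or lower in tumor nodules than in control liver (x axis, percent, limma adjusted p under 0.05) for 35 gene lists, with the counts higher, lower and measured beside each. Dotted lines give the shares over all genes, 9.43% higher and 7.01% lower. Splicing factors and nuclear pore genes lie far above the first line and cytochrome P450 genes far above the second.

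Part of the DNA repair and chromatin genes rose, and no member of either list fell. Of 55 repair and checkpoint genes measured, 18 rose, among them Timeless, which protects stalled replication forks, at 2.98 ± 0.32 (adjusted p = 7.23e-06), and the DNA damage sensor Parp1 at 2.44 ± 0.34 (adjusted p = 1.07e-04). DNA methylation and Polycomb genes had 11 of 30 risen, a count that stayed at 11 on leaving out any 1 array. Dnmt1, the maintenance methyltransferase, read 1.29, 1.19, 1.39 and 1.00 in nodules, against −1.55, −1.59 and −2.73 in control liver, and rose by 3.17 ± 0.38 (adjusted p = 2.18e-05). Ezh2, the histone methyltransferase of Polycomb, rose by 2.79 ± 0.32 and was well above background on 1 of 3 controls. Dnmt3b, a de novo methyltransferase of early development, rose by 2.23 ± 0.57 (adjusted p = 0.0131), a call lost without control 2 or control 3, and Rbbp7, a histone-binding partner, rose by 3.02 ± 0.41. Among 18 E2F and retinoblastoma genes 3 rose and 3 fell. Foxm1, which drives mitotic genes, rose by 3.43 ± 0.38, the E2F partner Tfdp1 by 3.08 ± 0.40 and Mybl2 by 2.80 ± 0.59. E2f8 is given as fallen at −3.37 ± 0.49, but its probes disagree in sign. Of 17 G1 cyclins, kinases and inhibitors 5 rose and 0 fell, among them Cdk4 at 2.98 ± 0.38, Cks1b at 3.07 ± 0.35, Ccne2 at 2.07 ± 0.43 and the inhibitor Cdkn1c, which is imprinted, at 3.64 ± 0.39.

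Genes of serine synthesis and part of the polyamine genes rose, while the serine and glycine and pentose phosphate lists held falls too. The enzymes of serine synthesis rose, Psat1 as above, Psph by 5.16 ± 0.50 (adjusted p = 3.37e-06) (well above background on 1 of 3 controls) and Phgdh, the first enzyme, by 2.45 ± 0.43 (adjusted p = 7.94e-04). In the whole list of 18 serine and glycine genes 5 rose (3 without control 2) and 5 fell. Agxt, which clears glyoxylate in peroxisomes, read −0.96, −1.56, −1.66 and −1.54 in nodules, against 2.87, 1.96 and 2.04 in control liver. It fell by 3.72 ± 0.40. Polyamine genes had 5 of 16 risen and 0 fallen. Odc1, the rate-limiting enzyme and a classical MYC target, read 4.13, 4.17, 3.31 and 4.24 in nodules, against 1.76, 2.03 and 1.83 in control liver, and rose by 2.09 ± 0.34 (adjusted p = 4.08e-04), while spermidine synthase Srm rose by 2.70 ± 0.35 and spermine synthase Sms by 2.10 ± 0.38. Of 8 pentose phosphate genes, which supply ribose and NADPH, 3 rose and 1 fell: cytosolic G6pdx rose by 2.27 ± 0.34 and Pgd by 2.04 ± 0.48, while H6pd, of the endoplasmic reticulum, fell by 2.27 ± 0.43.

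Some amino acid transporters rose and others fell, also within the Slc1 and Slc7 gene families. Among 30 measured, 7 rose (4 without control 1, 3 with the slide as a block) and 4 fell. Slc1a5, a neutral amino acid carrier that takes up glutamine, read 3.99, 3.79, 2.17 and 4.12 in nodules, against −0.55, −0.79 and −1.40 in control liver, a difference of 4.43 ± 0.54 (adjusted p = 2.95e-05). Slc1a2, a glutamate carrier of hepatocytes near the central vein, read −1.67, −0.51, −2.83 and −1.72 in nodules and 5.01, 3.57 and 3.53 in control liver, and fell by 5.72 ± 0.55. The arginine and lysine carrier Slc7a1 was at least 11.3-fold higher (adjusted p = 1.60e-05), and its hepatic relative Slc7a2 fell by 2.77 ± 0.50.

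**Figure D4:**
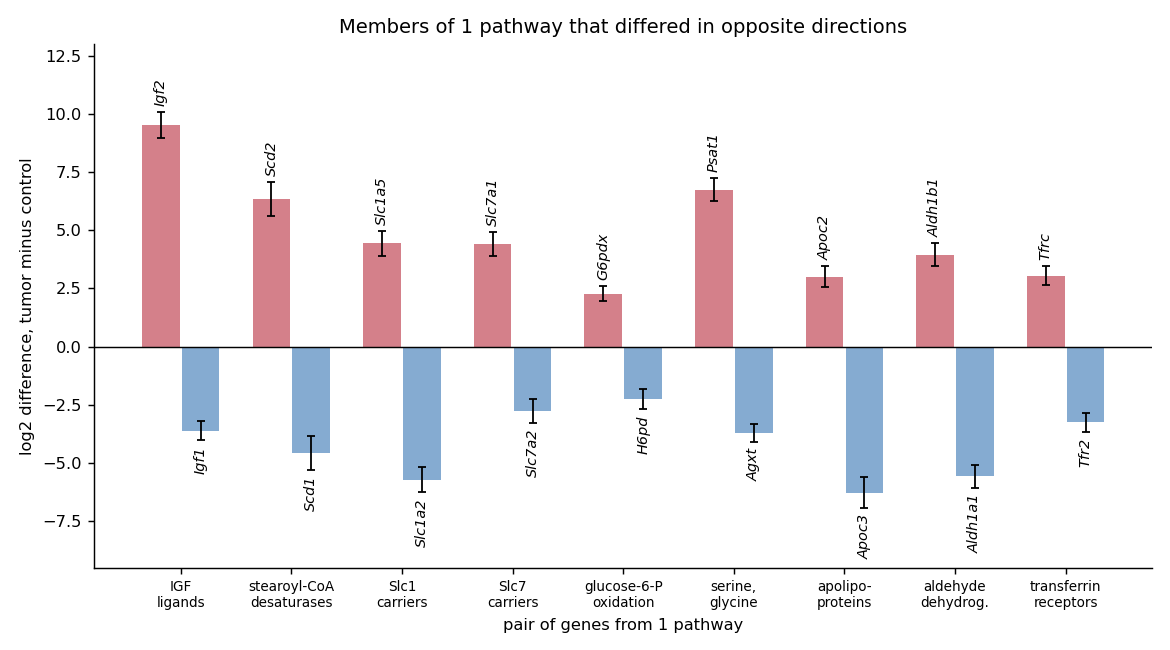
Log2 difference, tumor nodules minus control liver (y axis), for 9 pairs of related genes (x axis) of which 1 member rose and the other fell. Bars are fitted differences and error bars the SE of the limma model. Slc7a1 was not well above background in control liver, so its bar is no measured fold. Igf2 has the largest rise among the 9 pairs and Apoc3 the largest fall.

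Several fetal and imprinted growth genes rose steeply, and others of their kind did not pass. Igf2, the fetal insulin-like growth factor, read 7.27, 6.21, 7.99 and 5.46 in nodules, against −3.46, −2.87 and −2.07 in control liver. It rose by 9.53 ± 0.56 (adjusted p = 5.28e-08) and was well above background on 1 of 3 controls. Igf1, its postnatal counterpart made by hepatocytes, read 5.00, 4.77, 5.19 and 4.21 in nodules and 8.47, 8.23 and 8.55 in control liver, and fell by 3.62 ± 0.41 (adjusted p = 1.52e-05). The receptor that clears IGF2, Igf2r, rose by 2.40 ± 0.36, and the growth hormone receptor Ghr fell by 2.85 ± 0.46. Igfbp1, an insulin-like growth factor binding protein, varied by 5.34 among nodules and rose by 4.32 ± 1.41 (adjusted p = 0.0487), a call that was lost on leaving out any of control 1, control 2, tumor 1, tumor 2 or tumor 3, and with the slide as a block. Of 19 IGF axis genes 5 rose (3 without control 1, control 2 or tumor 1) and 5 fell.

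Of 28 imprinted growth genes 9 rose and 2 fell, against 9.43% of all genes risen and 7.01% fallen. The paternally expressed Peg3 rose by 4.40 ± 0.47, and the maternally expressed Slc22a18 fell by 2.02 ± 0.37. The X-linked Bex and Tceal genes, small adaptors of uncertain function that are neighbours on the chromosome, had 6 of 9 measured members risen and 0 fallen, and the count was 6 on leaving out any 1 array. Bex2 read 5.64, 5.76, 3.57 and 4.95 in nodules, against −3.04, −3.92 and −3.20 in control liver, and was at least 229-fold higher (adjusted p = 2.79e-07). Bex1 and Bex3 rose (7.98 ± 0.65 and 7.78 ± 0.59) on 3 nodules with a value, and Bex4 by 6.01 ± 0.54. Bex members resemble each other in sequence, and whether their probes tell them apart was not tested.

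In the list of oncofetal genes 5 of 24 rose and 2 fell. The list also holds the adult gene Alb, which was among the falls. Igf2bp3, an RNA-binding protein of embryos, rose by 3.24 ± 0.52 (adjusted p = 3.90e-04), the chromatin protein Hmga1 by 3.12 ± 0.49 (adjusted p = 2.94e-04) and Dlk1, an imprinted surface protein of hepatoblasts, by 2.35 ± 0.61 (adjusted p = 0.0143), a call lost without control 2. Gpc3, a surface proteoglycan used as a marker of liver cancer, gave −0.28 ± 0.95 (adjusted p = 0.886) and was well above background on 1 of 4 nodules and 1 of 3 controls. Lin28b, which blocks maturation of let-7, gave −0.32 ± 0.86 (adjusted p = 0.849), Igf2bp1 2.24 ± 0.89 (adjusted p = 0.104), Igf2bp2 −0.77 ± 0.48 (adjusted p = 0.317) and Hmga2 −0.18 ± 0.50 (adjusted p = 0.859). Alb, the adult serum albumin gene, read 7.47, 8.17, 8.50 and 7.04 in nodules, against 10.21, 10.36 and 9.84 in control liver, and fell by 2.34 ± 0.44 (adjusted p = 0.00171).

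Detoxification genes fell. Of 42 cytochrome P450 genes of families 2, 3 and 4, 37 fell and 0 rose, with a median of −4.26, or −4.04 with bounded members at their bounds. Cyp2a4 read −2.27, −2.10, −1.54 and −1.15 in nodules, against 5.81, 5.40 and 5.71 in control liver, and fell by 7.40 ± 0.45 (adjusted p = 6.40e-08). Its near-identical paralog Cyp2a5 fell by 7.40 ± 0.56, and the array may not separate them. Cyp2a12 was well above background on 0 of 4 nodules and was at least 51.6-fold lower (adjusted p = 1.77e-07). Cyp4f15 was at least 13.3-fold lower (adjusted p = 1.75e-06) and Cyp7b1, of bile acid synthesis, at least 42.7-fold lower (adjusted p = 4.49e-07), and Cyp3a41a fell by 5.31 ± 0.40. Of 46 conjugating enzymes, which attach sugars, sulfate or glutathione to drugs and hormones, 35 fell and 2 rose. The glucuronyl transferases Ugt2b37, Ugt2b5 and Ugt2b38 fell (−7.59 ± 0.42, −7.56 ± 0.44 and −6.93 ± 0.44), and Ugt2b1 at −7.65 ± 0.54. Mgst3, a microsomal glutathione transferase, was an exception and rose by 2.21 ± 0.52 (adjusted p = 0.00766), but was not called with the median probe (0.81).

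Other drug-handling enzymes and carriers fell in part. Aldehyde oxidase Aox3 fell by 7.35 ± 0.47, and the carboxylesterases Ces3b and Ces1d fell (−8.50 ± 0.55 and −6.60 ± 0.44). Of 31 alcohol and aldehyde dehydrogenases 13 fell and 2 rose. Aldh1a1, which makes retinoic acid, read 1.99, 1.49, 2.92 and 1.52 in nodules, against 8.03, 7.54 and 7.08 in control liver, whereas mitochondrial Aldh1b1 read 4.44, 4.07, 4.33 and 3.26 in nodules and 0.30, −0.60 and 0.53 in control liver. The first fell by 5.57 ± 0.50 and the second rose by 3.95 ± 0.50, and Adh1 fell by 4.10 ± 0.41 and Rdh7 at −6.62 ± 0.59. Of 28 organic ion and metabolite carriers 17 fell and 1 rose. Slco1b2, which takes up bilirubin and drugs, fell by 6.84 ± 0.46. Slco1a1 was at least 21.5-fold lower (adjusted p = 1.47e-05). The exception was Abcc4, an exporter of nucleotides and bile acids, at 3.22 ± 0.85 (adjusted p = 0.0148), which was not called without control 3 or tumor 1.

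Most genes of secreted plasma proteins fell, in each class measured. Complement had 19 of 25 fallen and 2 risen, coagulation 20 of 27 fallen and 0 risen, apolipoproteins 17 of 25 fallen and 1 risen, and protease inhibitors 19 of 24 fallen and 1 risen, against 7.01% of all genes fallen. C8g, of the membrane attack complex, read −0.34, −0.32, 0.07 and −0.69 in nodules, against 6.18, 5.90 and 5.81 in control liver, and fell by 6.28 ± 0.39 (adjusted p = 8.25e-08), while C8a and the lectin Mbl2 fell (−4.63 ± 0.34 and −6.20 ± 0.42). The exception C1qc, made by macrophages rather than hepatocytes, rose by 2.01 ± 0.54 (adjusted p = 0.0163) (not called without control 1 or control 2, or with the slide as a block). Among clotting genes F9 (factor IX) fell by 5.03 ± 0.40, F5 at −4.49 ± 0.40 and Fgg, a chain of fibrinogen, at −2.77 ± 0.40. Pon1, an enzyme of HDL, fell by 7.55 ± 0.56, well above background on 2 of 4 nodules. Apoa5 fell by 6.41 ± 0.53 and Apoc3, which slows triglyceride clearance, at −6.29 ± 0.66, but Apoc2, which activates lipoprotein lipase, read 7.97, 7.67, 8.60 and 7.17 in nodules, against 4.97, 4.10 and 5.47 in control liver, and rose by 3.00 ± 0.45 (adjusted p = 2.53e-04).

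Among protease inhibitors, Serpina3k read 1.25, 1.06, 0.11 and 1.74 in nodules, against 9.32, 9.16 and 9.41 in control liver, and fell by 8.25 ± 0.49 (adjusted p = 5.31e-08). Its relatives Serpina3c and Serpina3m fell (−8.41 ± 0.57 and −7.46 ± 0.43), and Mug1, a murinoglobulin, at −6.82 ± 0.48. A2m, which is related in structure to Mug1, went the other way, well above background on 4 of 4 nodules and 0 of 3 controls, and was at least 3.52-fold higher (adjusted p = 0.00404).

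Many genes of glucose, nitrogen and fat metabolism fell. Gluconeogenesis and glycogen genes had 12 of 22 fallen and 1 risen. Fbp1, a gluconeogenic phosphatase, read −1.10, −1.59, 0.44 and −1.18 in nodules, against 6.08, 5.76 and 6.35 in control liver, and fell by 6.92 ± 0.49 (adjusted p = 1.89e-07), while Gckr fell by 2.31 ± 0.42. The urea cycle and amino acid breakdown list had 21 of 33 fallen (13 without the 4 arrays of highest E1A signal) and 1 risen. Aass, of lysine breakdown, fell by 7.32 ± 0.66, Tdo2, of tryptophan breakdown, at −6.52 ± 0.66, and Otc, of the urea cycle, at −4.99 ± 0.66. The list of fatty acid oxidation, ketogenesis and peroxisome genes had 19 of 44 fallen (11 without those 4 arrays) and 1 risen, with Decr2 at −3.03 ± 0.37 and Scp2 at −2.54 ± 0.32.

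Lipid synthesis changed in both directions. Scd2, a desaturase of fetal liver and brain, read 2.61, 3.50, 1.34 and 3.51 in nodules, against −1.55, −4.82 and −4.43 in control liver, and rose by 6.34 ± 0.74 (adjusted p = 1.93e-05), well above background on 1 of 3 controls. Scd1, its adult liver relative, read 1.09, 2.28, 1.01 and 1.66 in nodules, against 6.40, 5.96 and 5.85 in control liver, and fell by 4.56 ± 0.73 (adjusted p = 3.87e-04). In the list 5 of 37 rose (3 without control 2) and 13 fell, including the fatty acid binding protein Fabp1 at −3.51 ± 0.38 and Thrsp at −5.55 ± 0.77. Of 26 cholesterol synthesis genes 2 rose and 4 fell, and Insig2 and the reductase Tm7sf2 were among the falls (−3.36 ± 0.31 and −2.77 ± 0.52). Of 34 citric acid cycle genes 4 rose (1 without control 3) and 3 fell, shares near the 9.43% risen and 7.01% fallen of all genes. None of the 71 oxidative phosphorylation genes passed (limma), but 6 rose and 5 fell with normexp and quantile normalization, and 5 rose and 5 fell in the authors' table.

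Part of the iron genes and of the genes of both liver zones fell. Of 29 iron and heme genes 10 fell and 2 rose. The transferrin receptor Tfrc read 1.75, 1.04, 0.50 and 1.86 in nodules, against −0.86, −2.27 and −2.14 in control liver, and rose by 3.05 ± 0.41 (adjusted p = 7.65e-05), whereas its hepatocyte relative Tfr2 fell by 3.25 ± 0.40 (adjusted p = 3.34e-05). Alas1, the first enzyme of heme synthesis, fell by 4.04 ± 0.49, the haem-binding plasma protein Hpx at −4.65 ± 0.56 and the metalloreductase Steap4 at −7.72 ± 0.81. The list of pericentral genes, expressed around the central vein, and of Wnt target genes had 11 of 21 fallen and 0 risen. Periportal genes had 8 of 16 fallen (5 without control 1, 4 without the 4 arrays of highest E1A signal) and 1 risen. Pericentral Cyp1a2 and Cyp27a1 fell (−6.41 ± 0.70 and −4.87 ± 0.50), and Cyp2e1 at −8.03 ± 1.33 (adjusted p = 4.96e-04). Glul, glutamine synthetase, at −1.68 ± 0.51 (adjusted p = 0.0337), lost its call on leaving out any 1 array except control 2, and with the slide as a block. Periportal Cyp2f2 fell by 7.84 ± 0.72 and Etnppl at −5.54 ± 0.85.

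Some regulators of hepatocyte identity fell. None of 23 hepatocyte transcription factors rose and 6 fell (3 without control 1 or tumor 1). Hnf4a, a master regulator, read 2.54, 2.48, 2.69 and 1.79 in nodules, against 3.93, 3.16 and 3.98 in control liver, and its difference of −1.32 ± 0.40 (adjusted p = 0.0344) was lost on leaving out control 1, control 3, tumor 1, tumor 2 or tumor 4, and with the slide as a block. Onecut2 fell by 3.19 ± 0.48, Gata6 at −2.32 ± 0.38 and Zhx2, a repressor of Afp and H19 in adult mouse liver, at −2.11 ± 0.50 (adjusted p = 0.00794), well above background on 1 of 4 nodules. Zhx2 was not called with normexp and quantile normalization (−0.28) or in the authors' table (−0.69). Cebpa gave −0.99 ± 0.62 (adjusted p = 0.326) and Foxa2 −0.83 ± 0.49 (adjusted p = 0.293). Of 34 nuclear receptors 0 rose and 10 fell (4 to 6 without control 1, control 3, tumor 1 or tumor 2). Esr1, the estrogen receptor, was well above background on 0 of 4 nodules and at least 2.64-fold lower (adjusted p = 6.20e-05), but it was not called with normexp and quantile normalization (−0.14) or in the authors' table (−0.34). The orphan receptor Rora fell by 2.51 ± 0.32 and Nr1h4, the bile acid receptor, at −2.19 ± 0.53 (adjusted p = 0.00863).

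Several growth factor and cytokine receptors fell. Egfr, the epidermal growth factor receptor, read 1.17, −0.13, 1.18 and 0.07 in nodules, against 6.23, 5.41 and 5.29 in control liver, and fell by 5.07 ± 0.47 (adjusted p = 2.11e-06). Fgfr2 fell by 4.52 ± 0.53 and the ligand Mst1 at −2.27 ± 0.33. In the list of 43 receptor tyrosine kinases and ligands 7 fell and 4 rose (2 without control 2, tumor 3 or tumor 4), with Klb, the co-receptor of hepatic FGF signals, at 2.06 ± 0.43. Of all genes 9.43% rose and 7.01% fell, so the share risen in this list was near that of all genes. The LIF receptor Lifr fell by 4.66 ± 0.39 (adjusted p = 7.16e-07) and Il6st, the shared subunit of IL-6 family receptors, at −2.24 ± 0.44 (adjusted p = 0.00177). The list of IL-6 and STAT genes had 5 of 21 fallen (3 without control 1) and 0 risen.

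Many interferon-stimulated genes fell in nodules. Of 42 measured 21 fell and 0 rose, with a median of −1.76. With normexp and quantile normalization 14 fell, with a median of −0.65, and 19 fell in the authors' table, with a median of −1.11. Iigp1, an interferon-induced GTPase, read −4.93, −5.11, −3.05 and −2.50 in nodules, against 2.70, 1.94 and 3.50 in control liver, and fell by 6.61 ± 0.70 (adjusted p = 7.69e-06), well above background on 1 of 4 nodules. Ifit1 fell by 5.56 ± 0.79, Gbp4 at −4.48 ± 0.65 and Irgm2 at −3.53 ± 0.56. MHC and antigen presentation genes had 9 of 21 fallen and 0 risen, with H2-Q10 at −2.89 ± 0.48, H2-K1 at −2.85 ± 0.52 and H2-T23 at −2.25 ± 0.41. The immunoproteasome subunits Psmb8 and Psmb9 fell (−2.59 ± 0.67 (adjusted p = 0.0129) and −2.12 ± 0.53 (adjusted p = 0.0109)). Psmb8 was not called without control 1 or tumor 3, and Psmb9 without control 3.

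Markers of other cells moved unevenly, and their part in these falls was not tested. Their counts are to be read against 9.43% of all genes risen and 7.01% fallen. Stellate cell and fibroblast markers had 7 of 26 risen and 1 fallen, and their mean level was −0.09 to 0.69 in nodules and −0.81 to −0.37 in control liver. The collagen genes Col3a1, Col1a2 and Col1a1 rose (3.11 ± 0.46, 3.17 ± 0.50 and 2.86 ± 0.50). Neutrophil markers had 3 of 16 fallen, at −3.09 to −1.68 in nodules and −0.59 to −0.10 in control liver, with 1 marker above background on no nodule. Among them were Lcn2 at −7.49 ± 1.11 (adjusted p = 1.91e-04) and Fpr2 at −3.56 ± 0.59 (adjusted p = 4.97e-04). Macrophage markers had 5 of 20 risen (3 without control 1 or control 2) and 3 fallen, at 0.77 to 1.05 in nodules and 0.18 to 1.45 in control liver. Cd68 rose by 2.96 ± 0.48 and Cd5l by 2.29 ± 0.44, while Marco fell by 3.46 ± 0.62. Clec4f, which marks Kupffer cells, gave −2.44 ± 0.73 (adjusted p = 0.031), a call lost on leaving out any 1 array except tumor 4. Endothelial markers had 6 of 24 fallen (3 without tumor 1, tumor 2 or tumor 3) and 1 risen, with Dnase1l3 at −2.75 ± 0.50 and Clec4g at −2.99 ± 0.59, while Stab2 gave −0.64 ± 0.52 (adjusted p = 0.465). Of bile duct markers 2 of 16 rose and 2 fell: Ggt1, which is also a fetal hepatocyte gene, rose by 5.67 ± 0.49 (adjusted p = 1.16e-06), Krt19 gave −1.15 ± 0.56 (adjusted p = 0.194), Sox9 −0.69 ± 0.38 (adjusted p = 0.254) and Epcam 1.29 ± 0.64 (adjusted p = 0.199). None of 19 T and NK cell, 12 B cell and 12 exocrine pancreas markers passed. Hba-a1, a hemoglobin gene, gave −1.12 ± 0.83 (adjusted p = 0.41).

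Stress, death, p53 and hypoxia lists held calls in both directions, with shares to be read against 9.43% of all genes risen and 7.01% fallen. Of 32 unfolded protein and integrated stress response genes 2 rose and 9 fell (3 to 5 without control 1, control 2, tumor 1 or tumor 3, and 2 with the slide as a block). Asns, which makes asparagine, rose by 3.54 ± 0.36 (adjusted p = 4.98e-06), while the chaperone partner Dnajb9 and Herpud1 fell (−3.22 ± 0.34 and −2.38 ± 0.41). In the BCL2 family and caspases 6 of 34 rose (3 without control 3 or tumor 1) and 4 fell. Birc5 led the rises. Cflar, which blocks caspase-8, fell by 2.20 ± 0.38 (adjusted p = 6.58e-04). Of 27 p53 and growth-arrest targets 5 rose and 3 fell, and the rises were 1 or 2 without control 2, control 3, tumor 1 or tumor 4. Trp53 itself gave 0.40 ± 0.46 (adjusted p = 0.624) and its target Cdkn1a −0.31 ± 0.56 (adjusted p = 0.77), while Plk3 fell by 2.94 ± 0.65 (adjusted p = 0.00477). Of 28 hypoxia targets 5 rose and 2 fell, with Ndrg1 at 3.31 ± 0.50, Egln3 at 2.61 ± 0.55 and Eno1 at 2.04 ± 0.49 (not called without control 2), against Vegfa at −1.48 ± 0.36 (adjusted p = 0.00927) (likewise not called without control 2).

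The remaining lists held few calls. TGF-beta and BMP genes had 1 of 32 risen and 4 fallen (2 without control 2). Matrix and adhesion genes had 3 of 49 risen and 3 fallen (0 fallen without control 3), shares below those of all genes. Erythroid markers had 1 of 15 risen and 1 fallen, and sex chromosome genes 0 of 5 called.

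The 4 nodules are set side by side for the called genes, which were chosen on these same arrays. The median of the 1811 risen genes over control was 1.92, 1.82, 1.70 and 1.77 in tumor 1 to 4, and that of the 1347 fallen genes −2.43, −2.36, −2.22 and −2.32. Over all genes tested the medians were −0.19, −0.11, −0.24 and 0.01. Tumor 3, the dimmest array, had smaller falls in secreted proteins, and smaller differences in several other lists too. Its apolipoprotein median was −0.83, against −3.18 to −2.29 in the other nodules. Its protease inhibitors were at −1.99, against −3.60 or lower in the other nodules, and its complement at −2.11 against −3.68 to −3.26. Conjugating enzymes were at −2.15 there, against −3.50 to −3.08, and nuclear pore genes at 1.15, against 1.82 to 2.05. P450 genes, chaperonins and splicing factors were also nearest to 0 in tumor 3. Interferon-stimulated genes (−1.91, against −2.11 to −1.62) and neutrophil markers (−1.06, against −2.82 to −0.56) were not. Stellate markers were at 1.39 in tumor 3 and 0.12 to 0.40 in the others, and macrophage markers at 0.39 and −0.14 to −0.10. Without tumor 3, 1851 genes rose and 1254 fell. Genes with the widest range among nodules were Slc25a17, a peroxisomal carrier, at 6.82, −0.18, 0.02 and −0.28, and Apoc4, Apoa4, Scgb1a1, Gys2, Abcb11, Exoc4 and Igfbp1. Of these, Gys2 (glycogen synthase of liver) differed at −3.94 ± 0.83 (adjusted p = 0.00341), Apoc4 at −4.42 ± 0.92 (adjusted p = 0.00313), Apoa4 at −3.93 ± 1.03 (adjusted p = 0.0148) and the bile salt pump Abcb11 at −2.84 ± 0.90 (adjusted p = 0.0405). The call of Apoa4 was lost without control 1, tumor 1 or tumor 2, and that of Abcb11 on leaving out any 1 array except tumor 3.

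**Figure D5:**
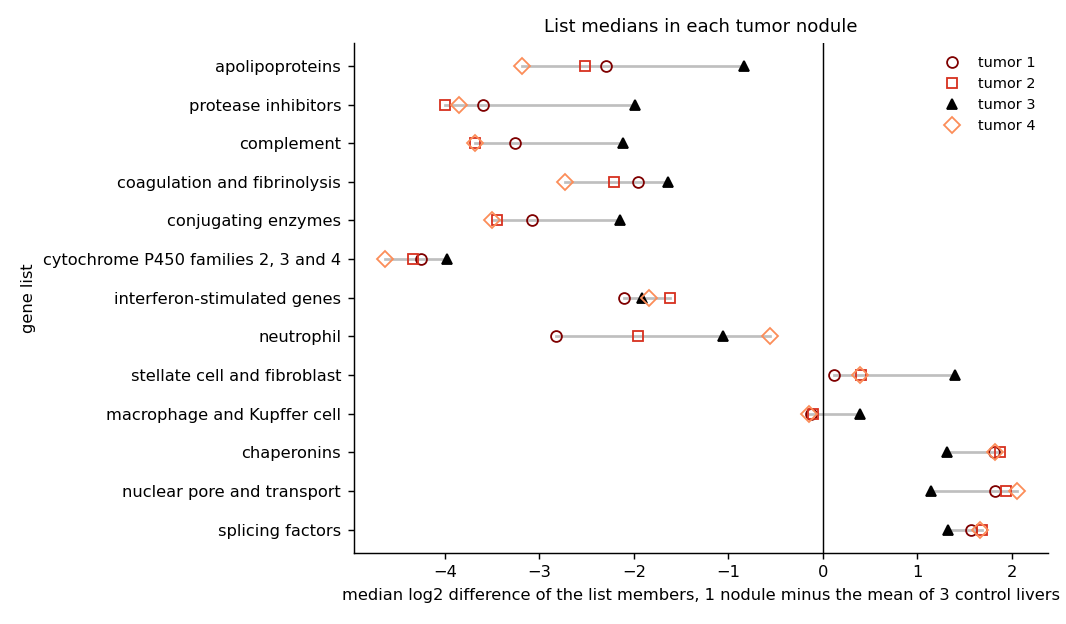
Median difference of each of 13 lists from the control mean (x axis, log2) in each of the 4 nodules. Markers give the nodule number. Tumor 3 lies nearest to 0 for secreted proteins, conjugating enzymes, P450 genes, chaperonins, nuclear pore genes and splicing factors, and highest for stellate markers.

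Pre-tumor liver is set beside the nodules for a few genes, since it carries the same transgenes 4 to 5 weeks off doxycycline. The comparisons share the control arrays, so the values are listed without a test between them. Afp read −4.76, −2.06, −2.49 and −4.92 in pre-tumor liver, H19 −1.18, 0.11, 1.62 and −1.36 and Bex2 −4.39, −3.25, −4.63 and −1.91, all far below the nodules. Cyp2a4 read 5.45, 5.89, 6.24 and 4.99 and Serpina3k 8.63, 8.45, 9.90 and 8.40 in pre-tumor liver, above all 4 nodules. None of these 5 genes passed between pre-tumor and control liver.

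Promoter motifs were counted in the 14448 tested genes with a promoter in RefSeq, on both strands of the same window. CACGTG was in 14.0% of risen genes and 8.96% of fallen genes, against 10.04% of all tested. CACGCG was in 23.4% of risen and 11.3% of fallen genes, against 15.7% of all. Another E-box variant, CATGTG, ran the other way, in 10.01% of risen and 13.7% of fallen genes, against 12.1% of all. The E2F motif was in 5.57% and 1.77%, against 2.69%. TATAAA was in 8.11% of risen and 16.9% of fallen genes, against 12.8% of all, and in 18 of 34 P450 promoters (52.9%). Median GC content was 61.3% in risen and 55.3% in fallen genes, against 58.3% of all, and was not adjusted for. By chromosome, risen genes were 7.48% (chromosome 7) to 11.6% (chromosome X) of those tested, and fallen genes 4.56% (chromosome X) to 9.13% (chromosome 6).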

How the data were processed

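RNA was measured on 15 Agilent one-colour arrays, of which 7 are compared here. Per the file headers, Feature Extraction 10.5.1.1 gave the processed signal, an intensity on a linear scale after background subtraction. The authors also deposited a table of log2 values, whose normalization is not given in the sources used here. It served as an alternative and as the source of gene symbols. The Spearman correlation of an array's signal with its column there was 0.990 for control 3, against 0.99998 or higher for the other arrays. The cause of the lower value was not tested. Of 21538 symbols, 4733 were updated from a reference gene table. Here, log2 of the processed signal minus each array's 75th percentile was used. Spots marked as outliers were left out (0.452% of gene spot values). Probes that were well above background on fewer than 3 arrays were dropped, and a gene took its passing probe with the highest mean, so that 19207 genes were tested (7492 had at least 2 passing probes).

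The test was limma 3.58.1 in R 4.3.3 on 1 model of the 4 groups, with 11 residual degrees of freedom, two-sided, and p-values were adjusted over all genes by Benjamini and Hochberg's method. It was tested on simulated data, where it missed some changed genes and called some unchanged ones. A bound sets the bright group's mean against, on each dim array, the higher of the lowest signal well above background and the gene's own signal. Named genes are the 12 largest statistics each way, the 8 largest bounds each way, up to 4 members of each list by adjusted p with any exception in direction, the 8 widest ranges over nodules, and a set of always-named genes. The text describes part of these, and some are not reported here. The members, lists and rules were chosen with earlier results of these data known. Probe positions are those of the file headers' build, mm9. Promoters are from RefSeq GRCm38.p6. Alternatives began with normexp and quantile normalization, on median spot signals because the scanner output holds no mean signals. Quantile normalization, median centring and the authors' table were also used. Further ones were other filters and probe choices, a trended robust variance and a fit of the tumor and control arrays alone. The rest were blocks for slide or for replicate number, each array left out, and the 4 arrays of highest E1A signal left out. The last was chosen after seeing the data. The number of arrays limits the precision.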

Additional observations from a re-analysis of the deposited data

Results flagged for a closer look

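In a test of 278 groups of 4 nodule values for 1 nodule lying far from the others (Dixon's gap over range), 22 stood out. Chance alone flags about 5% of independent, unselected groups, which these are not. They share the same 4 nodules and include genes named for their wide range, such as Slc25a17 and Apoc4. Tumor 3, the dimmest array, was the distant one in most. There its levels were 2.96 for Bex4, 2.93 for Mad2l1, 1.17 for Eif1ax, 5.28 for Cct2, 3.31 for Odc1, 4.35 for Phgdh, 2.17 for Slc1a5, 3.77 for Tfdp1, 5.55 for Hmga1, 4.14 for Trp53, −1.27 for Abcc4, −0.20 for Egln3 and 4.01 for Apoc4. Its list medians over control were 1.31 for chaperonins and 0.39 for macrophage markers.

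In tumor 1 the distant levels were −0.96 for Agxt, −1.26 for Insig2 and 6.82 for Slc25a17. In tumor 2 Acsm1 was at −1.31 and the median of nuclear receptors at −0.64. In tumor 4 the median of citric acid cycle genes was −0.11 and the E1A spike-in signal was 33.8.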

How the results depend on the processing

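The counts of 1811 risen and 1347 fallen genes stayed within 1.5 times under every setting listed here except 1. They ran from 1269 to 1851 and from 966 to 1848 on leaving out 1 array, and were 2258 and 1364 with normexp and quantile normalization, 2307 and 1401 in the authors' table and 1357 and 1061 with only the tumor and control arrays. Without the 4 arrays of highest E1A signal, chosen after seeing the data, they were 1513 and 1273. With replicate number as a block 2146 genes rose and 2356 fell. The labels do not say that the numbers pair samples. Same-numbered nodule and control arrays deviated with correlations of −0.23, 0.48 and 0.31, and differently numbered ones with −0.41 to 0.48. So few arrays cannot decide whether the numbers pair samples. Tumor 4 and control 1, both of high E1A signal, had 0.48.

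Among named genes, 2 reversed with the choice of probe. Myc was at 3.40 with normexp and quantile normalization, and at 5.16 with only the tumor and control arrays or with the median probe, in place of −1.10. E2f8 was at 1.17 with only the tumor and control arrays or with the median probe, at 0.74 to 1.43 on leaving out a control array (−3.67 to 1.43 over all arrays left out), and at 1.36 without the 4 arrays of highest E1A signal, in place of −3.37. Other named genes crossed the threshold under some settings. With the slide as a block, calls were lost for Aars (adjusted p = 0.0999), Igfbp1 (adjusted p = 0.0964), Hnf4a (adjusted p = 0.0806), Glul (adjusted p = 0.0775) and C1qc (adjusted p = 0.0579). With normexp and quantile normalization they were lost for Dlk1, Igfbp1, Zhx2, Esr1, Clec4f and Abcb11, and in the authors' table for Zhx2 and Esr1. Median centring ended those of Aars, Hnf4a, Nr1h4, Glul, Vegfa, Psmb9, Clec4f and Abcb11. The median probe ended those of Aars, Igfbp1, Hnf4a, A2m, Mgst3, Vegfa, Col1a1 and Clec4g. With only the tumor and control arrays, Abcc4 and Apoa4 were among those lost. Calls were gained for Igf2bp1 with quantile normalization, median centring, the replicate block or the median probe, without control 1 and without the arrays of highest E1A signal. They were also gained for Sox9 and Mxd4 with the mean of probes, for Sox9 with the median probe, for Krt19 with the replicate block or without tumor 4, and for Epcam without tumor 3.

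Sizes of list medians depend on the scaling: of 63 medians, 40 moved by more than the SD over nodules with normexp and quantile normalization, 40 with median centring and 33 in the authors' table. With the slide as a block, falls among nuclear receptors numbered 5 in place of 10, and rises among IGF axis, macrophage and p53 genes 3 in place of 5.

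The main limits are 3 control arrays, unequal brightness (tumor 3 had the fewest spots well above background, tumor 4 the most), and bulk tissue. Signal near background limits the fitted size of genes dim in 1 group, which is why bounds are given.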
